A study of Homo sapiens with 6 samples.

Results

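The ubiquitin genes RPS27A, UBB and FAU were chosen by name, with earlier results of these data known. The p-values below do not allow for that choice. Expression was compared between apoM overexpression and NC arrays of Caco-2. This cell line from a human colon carcinoma serves as a model of the intestinal epithelium. A feature, the array's unit of measurement for 1 transcript cluster, was taken for a gene when the platform annotation gave it that gene's symbol, alone or among several. This found 2 features of 37295 with a gene symbol, 1 for FAU and 1 for UBB, in a table of 135750 features. Neither is shared with another symbol. No feature carried the symbol RPS27A, so that gene was not analysed here, and 2 of the 3 genes have values. The labels give 2 groups of the same line, apoM overexpression and NC, with 3 arrays each. They state neither how apoM was overexpressed, nor what NC received, nor whether the overexpressing cells were 1 clone. Whether replicate arrays had a culture each is not stated either, so each p-value is set against array-to-array spread, which may be only technical.

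Ubiquitin is a small protein that is attached to other proteins, most often to send them to the proteasome. Human cells make it only as precursors: UBB encodes polyubiquitin, a chain of head-to-tail repeats, and RPS27A encodes 1 ubiquitin joined to the ribosomal protein eS31. FAU is built the same way from a ubiquitin-like protein, FUBI, joined to the ribosomal protein eS30 of the small subunit. Proteases cut these precursors into the free modifier and, for RPS27A and FAU, a ribosomal protein.

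The deposited values are log2 signals, with array medians of 4.48 to 4.53. APOM, the overexpressed gene, read 15.49, 15.56 and 15.85 in the apoM overexpression arrays, against 5.38, 5.84 and 6.41 in NC. All 3 apoM overexpression arrays were far above all NC arrays. Several epithelial markers were bright in both groups: EPCAM averaged 17.38 in apoM overexpression arrays and 17.40 in NC, CDH1 15.18 and 15.14, and VIL1 13.11 and 13.13. LGALS4, another marker on that list, read 3.99 and 3.80, below the median level of 5.29 over features with a symbol. The leukocyte marker PTPRC averaged 4.82 in apoM overexpression arrays and 5.12 in NC, and the endothelial marker PECAM1 6.08 and 5.90. Not all such markers were dim. The fibroblast marker COL1A1 averaged 9.03 and 9.30, and the leukocyte marker CD68 8.79 and 8.61. The epithelial marker KRT20, at 7.26 and 7.19, lay below both. None of the 11 epithelial, 6 fibroblast, 6 leukocyte or 5 endothelial markers passed in limma, and at an unadjusted p under 0.05 there were 2 epithelial markers, both higher, and none of the others. Over all features with a symbol, 13.9% were higher and 5.16% lower at that unadjusted p.

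The sequence before the start of FAU is shown because FAU was the member with the larger change and the one whose start the sequence table covers at the gene's own end. It comes from RefSeq (GRCh38.p14, minus strand, chr11:65122135-65122384), is given 5′ to 3′, and ends at the last base before the annotated start. Capitals mark matches to the motifs searched.

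FAU: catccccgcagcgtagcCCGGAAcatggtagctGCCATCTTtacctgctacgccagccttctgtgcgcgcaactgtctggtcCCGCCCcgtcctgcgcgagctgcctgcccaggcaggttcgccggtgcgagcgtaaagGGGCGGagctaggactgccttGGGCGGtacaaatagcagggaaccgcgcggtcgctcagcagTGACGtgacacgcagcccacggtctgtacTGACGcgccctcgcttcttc

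The window was 65.6% G and C, against a median of 58.0% over the 34788 different windows of the table. Both strands were searched, and none of the motifs searched overlapped another in the window. The GC box, GGGCGG, matched 3 times, at 168, 111 and 90 bases before the start, and 42.6% of all windows hold it. The core of the cAMP response element, TGACG, matched at 49 and 20 bases before the start and is in 21.2% of windows. The ETS core, CCGGAA, matched once and is in 14.5% of windows, and the YY1 core, GCCATCTT, matched once and is in 1.36%. TATAAA, which 10.8% of windows hold, had no match, nor had CCAAT. The first 9 transcribed bases are all C or T, beginning with C, the arrangement known from messenger RNAs of ribosomal proteins. The windows that the table gives for UBB start inside the gene's annotated span, so none is shown.

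FAU rose with apoM overexpression. Its signal was 12.52, 12.70 and 11.90 in the apoM overexpression arrays, against 9.93, 10.41 and 11.32 in NC. All apoM overexpression arrays lay above all NC arrays, with a gap of 0.58 between the lowest of them and the highest NC array, NC replicate 3. The means were 12.37 ± 0.42 with apoM overexpression and 10.55 ± 0.71 in NC (SD, n = 3 each), a 3.53-fold difference. On the log2 scale the change was 1.82 with a standard error of 0.34 and a 95% interval of 1.06 to 2.57 (limma, adjusted p = 0.0337 over features with a symbol). Of all features with a symbol, 2.32% passed this threshold in either direction and 1.86% passed it as higher. Their groups stood apart with apoM above NC in 17.0%, and 129 features had a larger rise than FAU. The median change over these features was 0.09. Permuting the 6 values exactly gave a two-sided p of 0.1, the smallest that 3 arrays against 3 allow.

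The call of FAU depended on which features and arrays entered the fit, while its sign did not. Over all 135750 features, of which 0.00147% passed, the same change had a limma adjusted p of 0.0834. Without NC replicate 3 the change was 2.20 (limma adjusted p = 0.00485), and without apoM overexpression replicate 3 it was 2.06 (adjusted p = 0.0469). It missed the threshold without NC replicate 1, where the change was 1.51 (limma adjusted p = 0.0983), and without NC replicate 2 (adjusted p = 0.129). It also missed it without apoM overexpression replicate 1 (limma adjusted p = 0.138) or replicate 2 (adjusted p = 0.125). Each of these fits has fewer arrays than the full one.

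UBB was higher on each apoM overexpression array than on any NC array but did not pass the test. Its signal was 15.69, 15.87 and 15.56 with apoM overexpression, against 14.53, 14.94 and 15.27 in NC. The gap between the groups was 0.29, again between apoM overexpression replicate 3 and NC replicate 3. UBB was among the brightest features of the array, above 98.4% of the features with a symbol, while FAU lay above 91.3%. Its means were 15.71 ± 0.16 in apoM overexpression arrays and 14.91 ± 0.37 in NC (SD, n = 3 each). The change of 0.79 had a standard error of 0.21 and a 95% interval of 0.33 to 1.26 (limma, adjusted p = 0.0725), and 1500 features, or 4.02%, had a larger rise. The exact two-sided permutation p was again 0.1. Without NC replicate 3 the change was 0.97 and passed (limma adjusted p = 0.0228), and it passed in none of the other fits with 1 array left out.

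**Figure D1:**
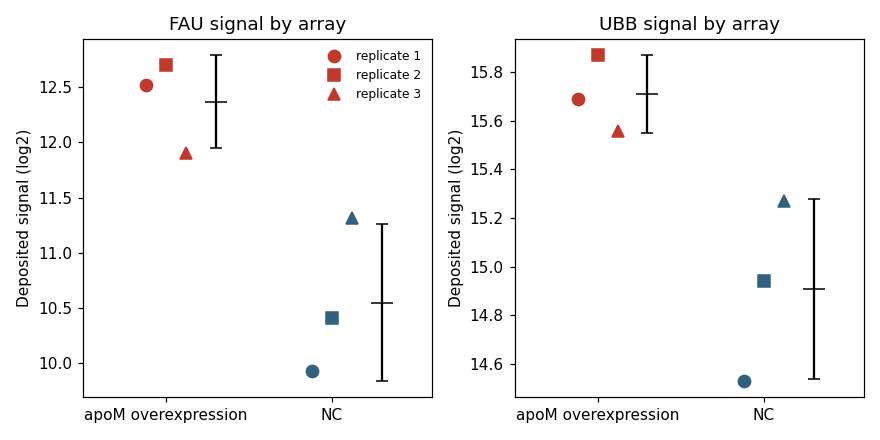
Deposited log2 signal (vertical axes, different ranges, not starting at 0) of FAU (left) and UBB (right) on each of the 3 apoM overexpression and 3 NC arrays, with the mean ± SD of each group beside the points. Marker shapes give the replicate number, by which the main test did not pair arrays. In both panels the groups do not overlap and NC replicate 3 is the NC array nearest to apoM overexpression.

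The arrays stood in the same order of distance in both genes. As deviations from the gene's own mean, FAU was at 1.06, 1.24 and 0.44 in apoM overexpression replicates 1 to 3 and at -1.53, -1.05 and -0.14 in NC replicates 1 to 3. UBB was at 0.38, 0.56 and 0.25 in apoM overexpression arrays and at -0.78, -0.37 and -0.04 in NC. Across the 6 arrays, which share the group difference, the values of FAU and UBB had a Pearson r of 0.988.

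The change of FAU was larger than that of UBB by 1.02 on the log2 scale, with a standard error of 0.26. FAU's deviation minus UBB's was 0.68, 0.67 and 0.18 in apoM overexpression arrays and -0.75, -0.68 and -0.10 in NC. These differences did not overlap between the groups, and the exact two-sided permutation p was 0.1, the smallest possible. Under the alternatives the excess ran from 0.90 to 1.23. With quantile normalization the change was 1.78 for FAU (limma adjusted p = 0.0322) and 0.58 for UBB (adjusted p = 0.137).

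**Figure D2:**
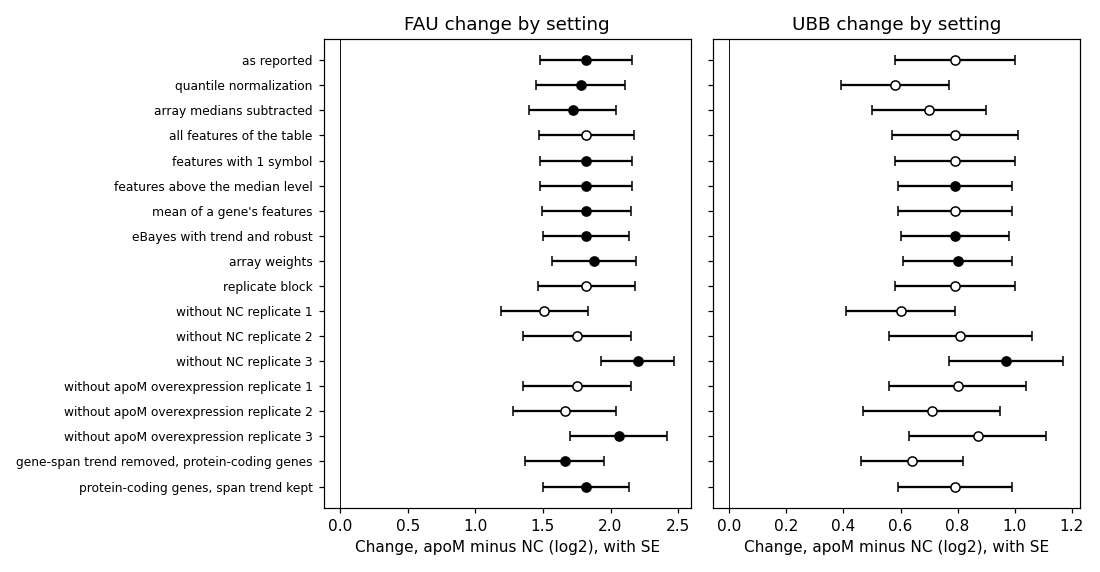
Change in FAU (left) and UBB (right) between apoM overexpression and NC on the log2 scale, with its standard error, under each processing setting and with each array left out. Filled points passed an adjusted p of 0.05. The changes run from 1.51 to 2.20 for FAU and from 0.58 to 0.97 for UBB, all above 0.

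Pseudogenes of the 3 ubiquitin genes have features of their own, and their sequences can be so close to the parent gene that probes may read both. The array could thus count part of a parent's signal at the pseudogene or the reverse. Of 11 such features, 10 were higher with apoM overexpression, 7 with the groups apart, and 2 passed the test. Over all features with a symbol, 62.2% were higher, 17.0% had the groups apart in that direction and 1.86% passed as higher. The median change of the 11 was 0.78, against 0.09 over all features with a symbol.

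FAUP1, a pseudogene of FAU, rose. It read 9.79, 10.27 and 9.92 with apoM overexpression, against 8.17, 8.25 and 9.37 in NC, a change of 1.40 with a standard error of 0.30 (limma adjusted p = 0.0471). NC replicate 3 was again the NC array closest to the apoM overexpression arrays. The call of FAUP1 was lost over all features (limma adjusted p = 0.103) and in each fit with 1 array left out except the one without NC replicate 3, with adjusted p-values of 0.0945 to 0.161. The other one, FAUP2, was dim, at means of 3.75 with apoM overexpression and 3.45 in NC, and its groups overlapped.

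Of 5 pseudogenes of UBB, UBBP5 rose by 0.78 (SE 0.17, limma adjusted p = 0.0460), and its groups were apart. It averaged 8.68 ± 0.09 in apoM overexpression arrays and 7.90 ± 0.22 in NC (SD, n = 3 each). The call of UBBP5 was lost after subtraction of array medians (limma adjusted p = 0.0554), over all features (adjusted p = 0.106) and in each fit with 1 array left out except the one without NC replicate 3, with adjusted p-values of 0.0880 to 0.151. UBBP4 had a change of 0.97 (SE 0.27, limma adjusted p = 0.0904), with 12.85, 12.76 and 12.75 in apoM overexpression arrays and 11.34, 11.58 and 12.52 in NC. UBBP1 and UBBP2 had changes of 0.57 and 0.66 with the groups apart, and UBBP3, a dim feature, had -0.03. Thus 4 of the 5 had changes of 0.57 to 0.97, near the 0.79 of UBB itself.

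RPS27A was represented by 4 pseudogenes and by no feature of its own, and their values are not a measurement of the gene. RPS27AP3 averaged 13.21 ± 0.44 with apoM overexpression and 12.43 ± 0.52 in NC, and RPS27AP1 12.57 ± 0.35 and 11.70 ± 0.50 (SD, n = 3 each). Their changes were 0.78 and 0.87, that of RPS27AP2 was 0.80 and that of RPS27AP14, a dim feature, 0.35. None passed in limma, with adjusted p-values from 0.101 to 0.460, and 3 of the 4 were higher at an unadjusted p under 0.05, against 13.9% of all features. The groups stood apart in RPS27AP1 and RPS27AP2 and overlapped in the other two.

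**Figure D3:**
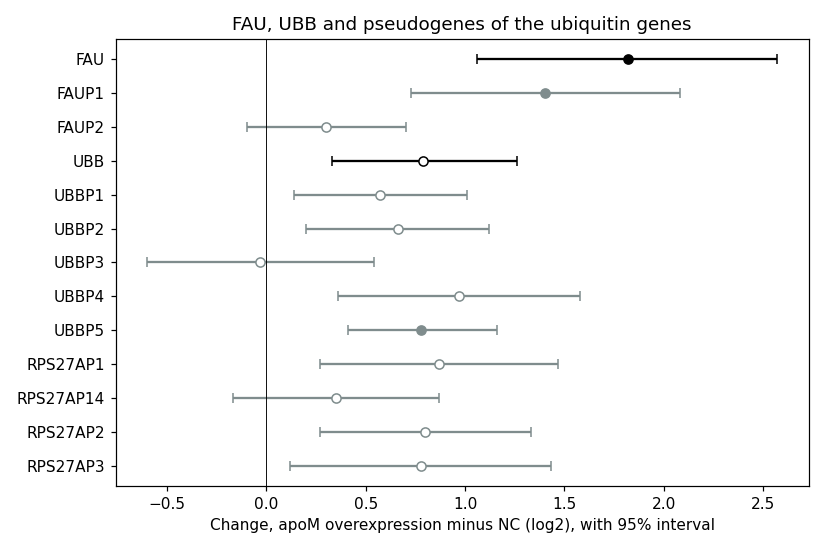
Change between apoM overexpression and NC (log2, horizontal axis) with its 95% interval from limma for FAU and UBB (black) and the 11 pseudogene features of FAU, UBB and RPS27A (grey). Filled points passed an adjusted p of 0.05: FAU, FAUP1 and UBBP5.

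FAU's ribosomal part, eS30, belongs to the small ribosomal subunit, so its change was set beside those of the other genes of that subunit. Of 32 genes listed, 22 had a feature with 1 symbol. None of the 22 passed in limma, where 17 were higher at an unadjusted p under 0.05, against 13.9% of all features with a symbol. The groups stood apart with apoM above NC in 16, against 17.0% of all features, and 21 of 22 changes were above 0, against 62.2%. Their median change was 0.72, and it was 0.49 with quantile normalization. RPS14 had the largest, 1.50 (SE 0.33, limma adjusted p = 0.0505), with 15.50, 15.71 and 14.97 in apoM overexpression arrays and 13.21, 13.85 and 14.62 in NC. RPS26 had a change of 1.07 (SE 0.25, limma adjusted p = 0.0569). FAU's change thus lay above those of all 22, and UBB's above those of 15. The ranking sets unlike signal levels side by side. FAU averaged 12.37 with apoM overexpression and 10.55 in NC, while the list's median levels were 17.58 and 16.96. The differences in change between FAU or UBB and these genes were not tested. Every array had the same highest signal, and RPS15A lay close to it, averaging 19.88 with apoM overexpression and 19.35 in NC. At the other end RPS29, at 3.85 and 3.65, lay below the median of every array. Whether the range of the signal limited the changes of such genes was not tested. Set against each gene's mean over the 6 arrays, the list's median deviations were 0.42, 0.44 and 0.20 in apoM overexpression replicates 1 to 3 and -0.69, -0.33 and -0.02 in NC replicates 1 to 3. NC replicate 3 was the nearest NC array here too. Without it, 15 of the 22 passed, all higher, as did 5.87% of all features with a symbol. With array weights 8 of the 22 passed as higher, against 4.08% of all features, and with trend and robust eBayes 8 did, against 3.03%. Among features above the median level 8 of the 21 tested there passed, against 7.71%.

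Genes of the ubiquitin system, ubiquitin-like modifiers included, had a pooled median change close to that of all features. The medians of the 6 lists ran from -0.04 to 0.28. Of 136 genes tested in 6 lists of the ubiquitin system, 1 rose, none fell, and their median change was 0.07, against 0.09 over all features with a symbol. The groups stood apart with apoM above NC in 35 and with apoM below NC in 15, against 17.0% and 7.34% of all features with a symbol. At an unadjusted p under 0.05 in limma, 25 were higher and 8 lower, against 13.9% and 5.16% of all features. None of the 136 had a change as large as FAU's, and 5 had one larger than UBB's.

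Activating enzymes (E1) load ubiquitin or a relative in the first step of conjugation. Their 8 genes had a median change of 0.01, which was -0.08 after subtraction of array medians, and none passed. UBA1, the main E1 of ubiquitin, read 8.12, 8.65 and 8.10 with apoM overexpression and 7.37, 7.55 and 7.91 in NC, a change of 0.68 (limma adjusted p = 0.116), which was 0.36 as the mean of its features. UBA7, the E1 of the interferon-induced modifier ISG15, had a change of 0.26 with overlapping groups, which was 0.09 without apoM overexpression replicate 3 and 0.45 without apoM overexpression replicate 2.

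Conjugating enzymes (E2) had a median change of 0.28 over 27 genes, between 0.18 and 0.37 under the alternatives, and held the gene that rose. UBE2S, which lengthens ubiquitin chains together with the anaphase-promoting complex, read 9.24, 9.28 and 8.87 with apoM overexpression, against 7.53, 8.11 and 8.01 in NC. The change was 1.25 (SE 0.20, limma adjusted p = 0.0253). This holds for the brightest of 3 UBE2S features. A dimmer one had a change of -0.44 with overlapping groups, and one shared with the pseudogene UBE2SP1 had 0.39. The mean of the 2 unshared features was 0.40 (limma adjusted p = 0.287), which ends the call. It was also lost over all features (limma adjusted p = 0.0735) and without replicate 1 or 2 of either group, with adjusted p-values of 0.0806 to 0.120.

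Ligases (E3) and cullin scaffolds, which choose the substrate, had a median change of -0.04 over 42 genes, and it lay between -0.13 and 0.02 under the alternatives. None passed. RBX1, the RING subunit of cullin ligases, had a change of 0.90 (limma adjusted p = 0.0726) and ELOC, the adaptor elongin C, of 0.85 (adjusted p = 0.0689), each with the groups apart. The list of deubiquitinases and related proteases had a median of -0.03 over 27 genes. Most of them remove ubiquitin or release it from its precursors, while SENP1 and COPS5 act on other modifiers. UCHL3, which cleaves short extensions off ubiquitin and NEDD8, averaged 11.91 ± 0.17 with apoM overexpression and 11.12 ± 0.34 in NC (SD, n = 3 each), a change of 0.79 (limma adjusted p = 0.0688). OTUB1 had a change of 0.63 (adjusted p = 0.0717). Neither list's median kept its sign under every alternative.

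The 14 genes listed with the ubiquitin-like modifiers, ATG5 among them, had a median change of 0.22, with none past the threshold. It was 0.38 without NC replicate 2. GABARAP, a modifier of autophagosome membranes, read 13.71, 13.45 and 13.28 with apoM overexpression, against 12.02, 12.41 and 13.10 in NC (change 0.97, limma adjusted p = 0.0813). UBD, the inflammation-induced modifier FAT10, had a change of 0.73 (adjusted p = 0.0674). Among 18 ubiquitin receptors and cofactors of the segregase VCP the median was 0.18, which was 0.11 without NC replicate 2 and 0.08 after subtraction of array medians, and none passed. FAF1, a VCP cofactor, had a change of 0.50. UBXN4, which holds VCP at the endoplasmic reticulum, had the lowest change of that list, -0.62 (SE 0.17, limma adjusted p = 0.0856), with its groups apart.

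**Figure D4:**
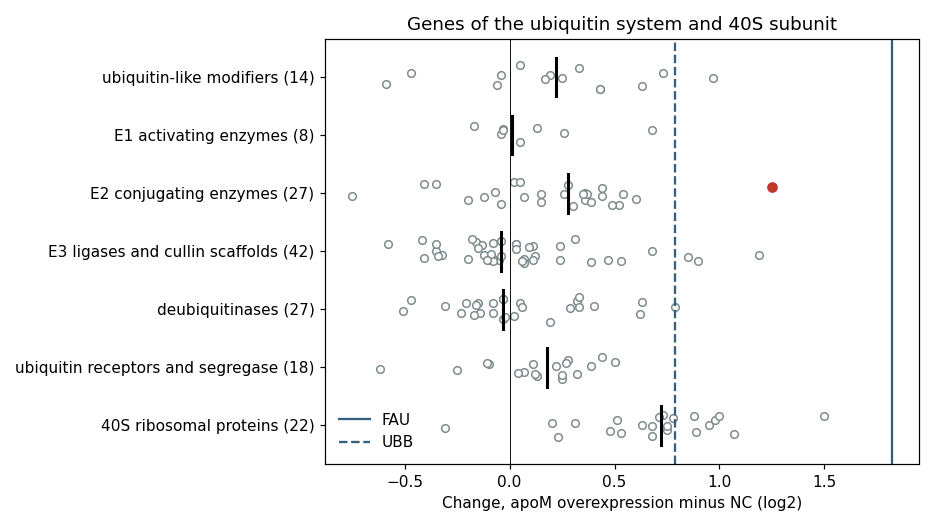
Change between apoM overexpression and NC (log2, horizontal axis) of each tested gene in 6 lists of the ubiquitin system and in the small ribosomal subunit, with the number of genes in brackets. Black bars are list medians, from -0.04 to 0.72, and the red point, UBE2S, passed an adjusted p of 0.05. Vertical lines give FAU at 1.82 and UBB at 0.79, and the vertical scatter within a list carries no value.

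The 5 protein-coding genes most like FAU across the 6 arrays, by Pearson r, were AHCY, H2BC4, H1-3, ILF2 and H2AC8, with r from 0.9984 to 0.9995. H2BC4, H1-3 and H2AC8 are histone genes, AHCY encodes the enzyme that cleaves S-adenosylhomocysteine, and ILF2 a double-stranded RNA binding protein. H1-3 rose by 1.28 and H2AC8 by 1.62 (limma adjusted p = 0.0451 and 0.0301), while AHCY had a change of 0.85. The 5 most like UBB were RPL18, a protein of the large ribosomal subunit, BLOC1S1, GSTA2, NDUFAB1 and VASP, with r from 0.9978 to 0.9985. Of these BLOC1S1 rose by 1.18 (limma adjusted p = 0.0441), and RPL18 had a change of 0.88. Such values were common: of 11667 candidate genes, 6.91% had an r over 0.95 with FAU and 6.81% with UBB. They describe 6 arrays that share the group difference and the order of the arrays.

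FAU and UBB are short genes, with spans of 1.50 and 1.97 kb including introns, against a median of 26.1 kb over protein-coding genes. Over all 17575 of these, the median change was 0.14 under 1 kb, 0.12 between 1 and 2 kb and 0.13 between 8 and 16 kb. It was 0.09 between 16 and 32 kb and -0.01 above 128 kb. Differences by span were larger among brighter genes. Over the brighter 10931 protein-coding genes, those with a level above 5.29, the median change was 0.50 under 1 kb, 0.26 between 1 and 2 kb, 0.10 between 16 and 32 kb and -0.10 above 128 kb. The bin of 1 to 2 kb held 198 genes, FAU and UBB included. Of these 8 rose, FAU among them, or 4.04%, and the groups stood apart with apoM above NC in 35.9%. These shares were 30.9% and 45.5% under 1 kb and 2.24% and 37.0% between 2 and 4 kb. Between 4 and 8 kb they were 4.0% and 34.0%. Over all features with a symbol, of every level and gene type, they were 1.86% and 17.0%. No gene in the bin of 1 to 2 kb had a change larger than FAU's, and 30 had one larger than UBB's. With the trend on span over protein-coding genes of every level removed, FAU's change was 1.66 (SE 0.29, limma adjusted p = 0.0357). UBB's was 0.64 (SE 0.18, limma adjusted p = 0.0937). With the trend kept in the same protein-coding genes, a fit chosen after seeing the data, FAU's change was 1.82 (limma adjusted p = 0.0394). UBB's was then 0.79 (limma adjusted p = 0.071). Removal of the trend of the brighter genes alone was not tested. Among the brighter genes of 1 to 2 kb, the median deviations were 0.18, 0.15 and 0.09 in apoM overexpression replicates 1 to 3. They were -0.25, -0.20 and 0.03 in NC replicates 1 to 3, so the arrays lay in nearly the order seen for FAU and UBB. In RNA pooled from a whole culture, a difference in the RNA per cell and one in the make-up of the culture cannot be told apart.

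**Figure D5:**
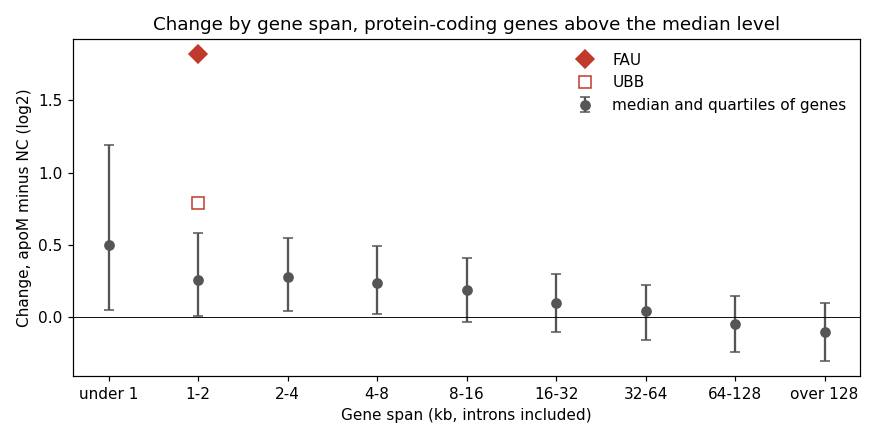
Median change (log2) with quartiles of protein-coding genes above the median level, in bins of gene span in kb, for apoM overexpression minus NC. FAU (filled, 1.82) and UBB (open, 0.79) are drawn in their bin of 1 to 2 kb, whose median is 0.26 and upper quartile 0.58.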

How the data were processed

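Total RNA of 6 Caco-2 samples was extracted with Trizol and biotin-labelled, per the labels' protocols. The authors deposited log2 signals; the submitters' processing notes name Affymetrix Expression Console. For its version, its normalization and a genome build, nothing is given in the sources used here. The log2 scale was judged from the range of the values. They were not normalized again, and no feature was called absent, since signal over background was not used here.

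Features were named through the platform annotation: 36176 carry 1 symbol and 1119 several. For lists, the brightest feature with 1 symbol was used. Spans and sequences come from RefSeq (GRCh38.p14). apoM overexpression minus NC was tested with limma 3.58.1 in R 4.3.3 (lmFit and eBayes, two-sided, Benjamini-Hochberg over 37295 features with a symbol, threshold 0.05), and single values by exact permutation in scipy 1.17.1. The procedure was tested on simulated data with independent noise for each feature. This cannot show how it behaves when many features share an order of arrays. Genes were named by rule: the members, APOM, pseudogenes, list genes past the threshold or else the 2 of smallest p, and the 5 genes most correlated with each member (1 symbol, protein-coding, above the median level).

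The members and lists were chosen with earlier results of these data known. Other human ubiquitin genes were not analysed here. The alternatives were other normalizations, feature sets, variance models, array weights, a replicate block, a gene-span correction (lowess span 0.3) and each array left out. The arrays' number limits the precision. Same-numbered arrays had deviations from the group means that correlated at -0.076, 0.035 and -0.081. Such values over all features cannot show a pairing that acts on some features only. The labels do not say what the numbers mean, and the main test did not pair arrays by them.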

Additional observations from a re-analysis of the deposited data

How the results depend on the processing

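FAU's change kept its sign under all alternatives tried. It missed the threshold at an unchanged 1.82 over all features (limma adjusted p = 0.0834) and with the replicate block (adjusted p = 0.0755), and ran from 1.51 to 2.20 with 1 array left out. UBB's change passed among features above the median level (0.79, adjusted p = 0.0428), with trend and robust eBayes (0.79, adjusted p = 0.0457) and with array weights (0.80, adjusted p = 0.0450). It ran from 0.60 to 0.97 with 1 array left out. The replicate block also ended the calls of UBBP5 (limma adjusted p = 0.0898), FAUP1 (adjusted p = 0.0755) and UBE2S (adjusted p = 0.0648). APOM passed throughout. RPS27A, with no feature, has no value under any setting.

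Features past the threshold numbered 867, with 694 higher and 173 lower. There were 2 over all features of the table, 1881 above the median level, 1419 with trend and robust, 1894 with array weights and 37 with the replicate block. There were 258 with the span trend removed and 215 in the same protein-coding genes with it kept, a fit chosen after seeing the data. At thresholds of 0.01 and 0.1 there were 24 and 2559. With 1 array left out the count ran from 1 (without apoM overexpression replicate 1) to 2631 (without NC replicate 3). Subtracting array medians moved the median of all features from 0.09 to -0.01, with 682 higher and 345 lower. Without signal over background, no limit of detection could be set for dim features such as FAUP2 and UBBP3. The cause of the differences in these counts was not tested.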
